A study of Mus musculus with 15 samples.

Results

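The clustered histone genes of the mouse were examined in 2 brain regions, cerebellum (Ce) and striatum (St), of mice selectively bred to run more on a wheel (line Hi) and of mice from a non-selected control line (Co). Members were all genes whose symbol starts with Hist1h, Hist2h, Hist3h or Hist4h, which gave 69 of the 26628 genes in the expression table. The 69 genes comprised 6 H1, 19 H2A, 19 H2B, 12 H3 and 13 H4 genes. By cluster, 55 belonged to Hist1 on chromosome 13, 10 to Hist2 on chromosome 3, 3 to Hist3 on chromosome 11 and 1 to Hist4 on chromosome 6 (GRCm38). Samples came from male Hsd:ICR mice that entered cages with a running wheel at about 6 weeks of age and were dissected 7 days later, in both lines. The paper's methods give a younger age at entry into these cages, so this age is uncertain. There were 4 CeCo, 4 CeHi, 4 StCo and 3 StHi samples, each from whole dissected tissue, and groups were taken from the deposited sample labels. Hi and Co denote the line as labelled throughout. The direction of the line differences rests on these labels, because the study's text gives the opposite direction for some genes outside the clusters, and nothing in the files settles which holds. If the line labels were exchanged, every difference between Hi and Co given here would change its sign. Among the members, the paper's main tables list Hist1h2al as higher in Co, which is the direction that these labels give. Each state of selection was represented by a single line, so selection and other differences between these lines cannot be told apart. According to the paper, the Hi mice also ran more and faster than the Co mice in the days before dissection. Line and recent running can therefore not be told apart either, a limit that the paper names. The labels did not tie a cerebellum and a striatum sample to the same mouse. Each library was made from an individual mouse, and the animals were not siblings. P-values within a region therefore measure a line difference against the spread between mice of a group, estimated from all 4 groups together. The main fit treated Ce and St libraries as independent. If these came from the same mice, P-values of the line contrast over both regions could be too small. The shared estimate of the spread would then count mice more than once, and the region and interaction tests would ignore a pairing.

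Clustered histone genes encode the linker histone H1 and the core histones H2A, H2B, H3 and H4, around which DNA is wrapped. Most are transcribed during S phase, and their mRNAs end at a stem-loop that is bound by the stem-loop binding protein instead of carrying a poly(A) tail. Some members also give longer, polyadenylated transcripts, which are the form commonly seen in cells that no longer divide, such as neurons. Whether the libraries were made from poly(A)-selected RNA and whether they kept the strand is not given in the sources used here.

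The stem-loop was sought in the GENCODE M21 transcripts because it separates the usual short form of these mRNAs from longer forms. It was found in the annotated transcripts of 33 of the 69 members, compared with 36 (0.0651%) of all 55341 annotated genes. Some GENCODE models end before the RefSeq ones, for example that of Hist1h2bl with 381 bases against a RefSeq span of 473. A member without a match may therefore still carry the stem-loop beyond its annotated end. In members with the stem-loop in a single-exon transcript, the 16 bases were of one form in 25 genes of the H1, H2A, H2B and H3 families and of another in 7 H4 genes. The sites of 3 measured members and of 2 at the detection limit are shown 5′ to 3′, with the stem-loop in capitals and the flanking transcript bases in lower case.
Hist3h2ba (chr11:58949344-58949369, plus strand): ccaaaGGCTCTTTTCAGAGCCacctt
Hist1h1c (chr13:23739507-23739532, plus strand): caaaaGGCTCTTTTCAGAGCCaccac
Hist4h4 (chr6:136803993-136804018, minus strand): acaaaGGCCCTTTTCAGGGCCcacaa
Hist1h2bf (chr13:23573760-23573785, minus strand): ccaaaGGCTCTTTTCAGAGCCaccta
Hist1h4f (chr13:23551286-23551311, minus strand): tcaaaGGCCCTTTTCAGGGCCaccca
The letters of the site did not separate measured from unmeasured members, whereas the annotated sequence after it differed in length. After the stem-loop the annotated transcript ran on for 169 bases in Hist3h2ba, 840 in Hist1h1c and 2445 in Hist4h4, but for 29 bases in Hist1h2bf and 33 in Hist1h4f.

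Of the 69 members, 15 reached 1 CPM (normalized counts per 1000000 of the sample) in at least 3 samples and were tested. A further 25 fell below this filter but exceeded 3 fragments, taken as the detection floor, in at least 1 sample of a group. The other members comprised 22 that stayed at or under the floor in all 4 groups and 7 that were listed at 0 in every sample. The 15 tested genes were Hist1h1c and Hist1h1e of the H1 family, Hist1h2ac, Hist1h2al, Hist2h2aa1 and Hist3h2a of H2A, Hist1h2bc, Hist1h2be, Hist2h2be and Hist3h2ba of H2B, Hist2h3c1 and Hist2h3c2 of H3, and Hist1h4h, Hist1h4i and Hist4h4 of H4. The 7 genes listed at 0 were Hist1h2aa, Hist1h2an, Hist1h2ap, Hist1h2ba, Hist1h2bq, Hist1h2br and Hist2h2aa2. Thus 8 of 55 Hist1 genes were tested, compared with 4 of 10 in Hist2, 2 of 3 in Hist3 and the only Hist4 gene. Samples held 38499264 to 43669012 normalized counts, recovered as 32909383 to 47485535 fragments, so 1 fragment was worth 0.841 to 1.30 normalized counts. The floor covers counting error only, and a gene at the floor was not detectable at this depth.

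The tested and untested members differed in their annotated transcripts. The expression filter used counts uncorrected for gene length, which favours long transcripts. Differences in length between these sets, including the stretch after the stem-loop, are therefore partly built in. Of the 15 tested members, 11 had the stem-loop, and in 9 of these more than 100 bases followed it. Among the 54 untested members 22 had it within the annotated transcript, and more than 100 bases followed it in 7. The median stretch after the stem-loop was 1153 bases in tested and 37.5 bases in untested members. A polyadenylation signal (AATAAA or ATTAAA) stood in the last 50 transcript bases of 9 tested genes (60.0%) and 8 untested genes (14.8%), compared with 44% of all annotated genes. The median exonic length was 1560 and 498 bases, respectively. Sequence shared with other genes also differed between these sets, because more than 50% of the 50-base windows were found in another annotated gene for 4 tested and 32 untested members. How fragments from such windows were assigned by the counting is not given in the sources used here, so the levels of genes with shared windows are uncertain.

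**Figure D1:**
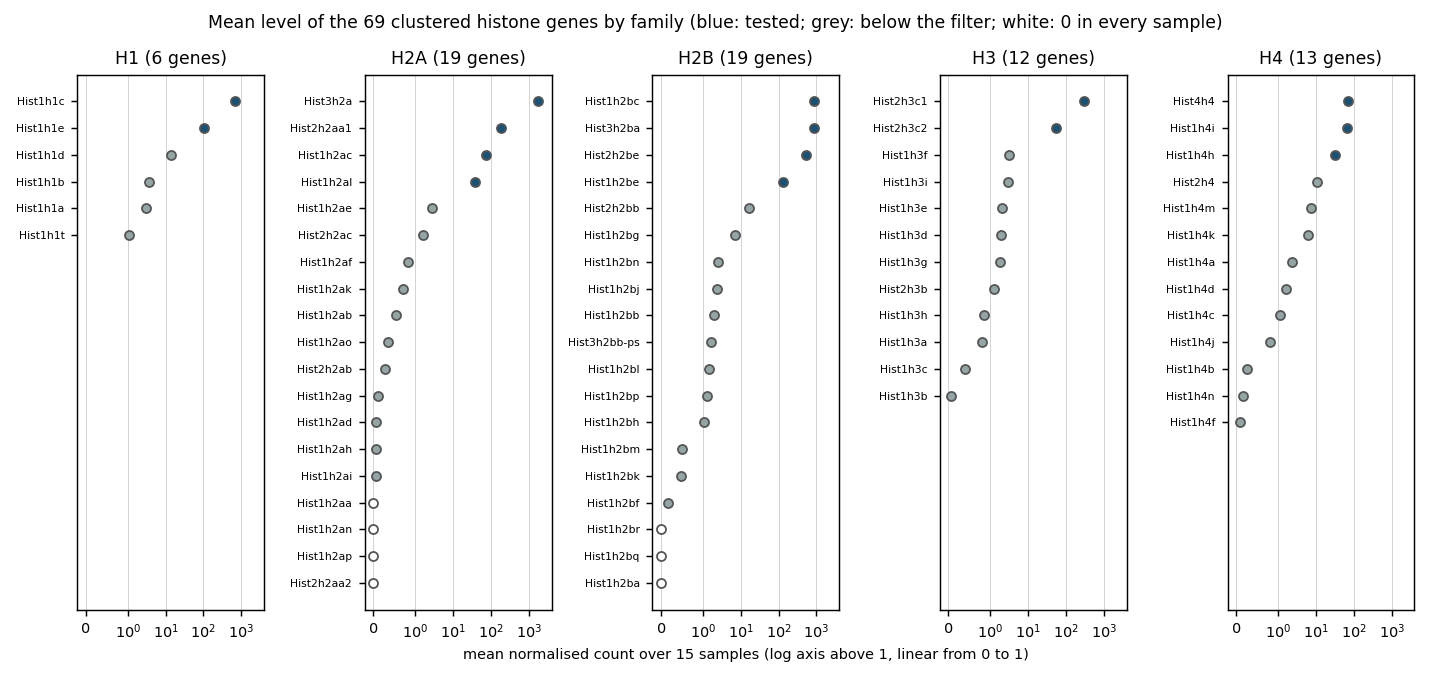
Mean normalized count over the 15 samples (horizontal axis, logarithmic above 1 and linear from 0 to 1) for each of the 69 clustered histone genes, in 1 panel per histone family and ordered by level. The 15 tested genes (blue) stand to the right of the genes below the filter (grey), and the 7 genes listed at 0 (white) are of the H2A and H2B families.

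A few genes carried most of the signal. All members together held 0.0117% to 0.0167% of the normalized counts of a sample, and the 5 highest members held 77.8% to 83.7% of that. H2B genes gave 41.5% of the summed member counts, H2A 35.2%, H1 13.5%, H3 6.36% and H4 3.45%. The Hist3 cluster, with 3 genes, gave 44.7% of the sum, the Hist1 cluster with 55 genes 35.4%, Hist2 18.7% and Hist4 1.21%. Summed over all members, levels were 4881 to 5681 normalized counts in CeCo and 5239.6 to 6499 in CeHi, and 4973 to 6348 in StCo and 5926 to 6755 in StHi. The ranges of the Co and Hi samples overlapped in both regions. The Hist2 sum was 881 to 1059.8 normalized counts in CeCo and 1224 to 1543 in CeHi, and 715 to 923 in StCo and 1079 to 1235 in StHi, and here the Hi samples lay above the Co samples in each region. Hist2h2be made up 47.9% of this sum over all samples, and not all genes of the cluster followed it, as Hist2h4 and Hist2h2bb had lower values in the Hi samples.

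Levels were also put per kilobase of GENCODE M21 exon, a scale on which genes can be compared only as far as these lengths hold. The highest level was that of Hist3h2ba, an H2B gene, with a mean of 1389 normalized counts per kilobase over the 15 samples. Hist3h2a, its H2A neighbour, followed at 816, Hist1h2bc (H2B) at 755 and Hist1h1c, which encodes a linker histone, at 426. Hist2h2aa1 (310), Hist2h2be (199) and Hist2h3c1 (166) formed the middle of the order. Hist1h2al had no fixed place in it, with 191 and 222 normalized counts per kilobase in CeCo and StCo but 5.26 and 6.48 in CeHi and StHi. Lower levels per kilobase were those of Hist1h4i (92.4), Hist1h4h (68.6), Hist1h1e (53.4), Hist2h3c2 (51.7), Hist1h2ac (30.2), Hist1h2be (30.1) and Hist4h4 (24.7). The RefSeq spans of several members are much shorter, for example 508 bases against 2146 in GENCODE for Hist3h2a. For Hist3h2ba they are 462 against 614 bases. The order was not computed with other lengths, and its ranks, including the first, could change with them. Neighbours in this order were not separated in every group. For example, Hist3h2ba and Hist3h2a stood at 1583 ± 193 and 619 ± 36.5 per kilobase in CeCo (SD, n = 4) but at 979 ± 46.7 and 940 ± 89.1 in StCo (n = 4).

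**Figure D2:**
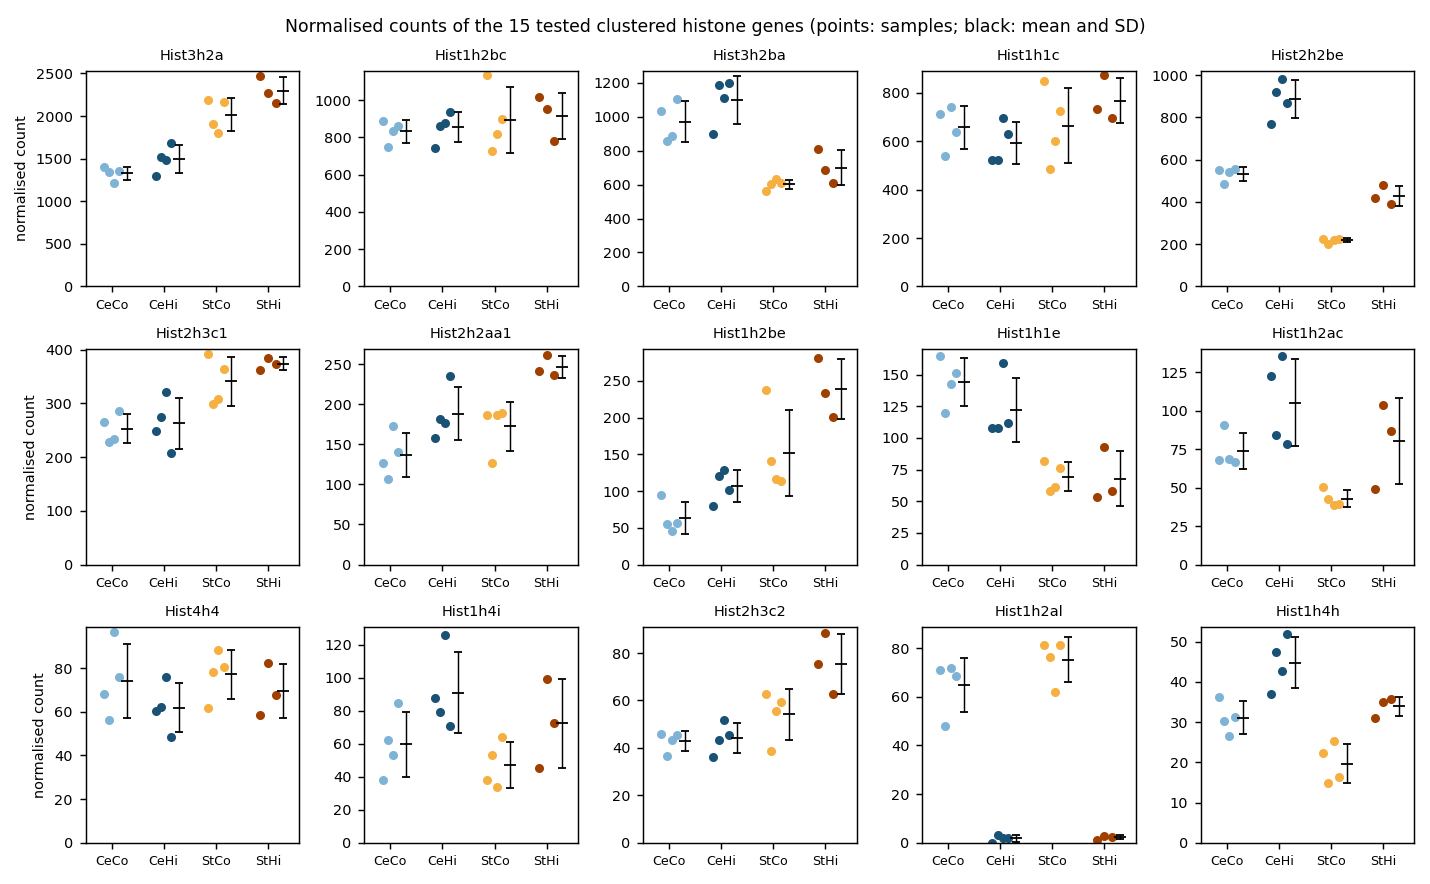
Normalized count (vertical axis, from 0) of each of the 15 tested clustered histone genes in every sample of the 4 groups, with the group mean and SD in black. Hist2h2be is higher in Hi than in Co samples in both regions, Hist1h2al is close to 0 in the Hi samples of both, and Hist3h2a and Hist3h2ba differ between regions in opposite directions.

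The line contrast asked which members differ between the high running and the control line. Averaged over both regions, 6 of the 15 tested members passed the threshold of an FDR-adjusted P-value of 0.05, compared with 8.48% of the 15213 genes tested. Of these 5 were higher in Hi (background 4.34%), namely Hist2h2be, Hist1h2ac, Hist1h2be, Hist1h4h and Hist2h2aa1, and Hist1h2al was lower (background 4.14%). In Ce 2 members passed (background 5.94%) and in St 2 passed (background 2.66%), and in each region these were Hist2h2be, higher in Hi, and Hist1h2al, lower in Hi. Hist1h2al and Hist1h4h reached the expression filter only through the Co and the CeHi samples, respectively, so that the filter favoured their calls, and the counts that hold them are not read against the background. The other 4 calls over both regions were those of Hist2h2be, Hist1h2ac, Hist1h2be and Hist2h2aa1. The median log2 difference of the 15 members was 0.16 in Ce and 0.23 in St, next to -0.0021 in Ce and -0.0046 in St for all genes tested. In the whole tissue, fewer cells of a type and less RNA per cell cannot be told apart.

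Hist2h2be encodes a variant H2B protein, known from work on olfactory neurons, and had the smallest adjusted P-value of the line contrasts among the tested members that were above the floor in every group. It lies at chr3:96221119-96223738 on the plus strand of GRCm38, and none of its 50-base windows occurs in another annotated gene. In Ce, Hist2h2be stood at 549, 484, 543 and 557 normalized counts in the CeCo samples (533 ± 33.1, mean ± SD, n = 4) and at 769, 922, 982 and 869 in the CeHi samples (885 ± 90.5, n = 4). In St, it stood at 223, 203, 221 and 226 in StCo (218 ± 10.5, n = 4) and at 418, 479.7 and 388 in StHi (429 ± 46.7, n = 3). Every Hi sample was above every Co sample of its region. The difference was log2 0.72, SE 0.090, adjusted p = 6.83e-05 in Ce and log2 0.96, SE 0.10, adjusted p = 9.10e-06 in St. Averaged over the regions it was log2 0.84, SE 0.066, adjusted p = 1.82e-07. The gene was also higher in Ce than in St, by log2 1.16, SE 0.066, adjusted p = 2.83e-11.

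Hist1h2ac, an H2A gene, had lower and more variable levels. In Ce, Hist1h2ac stood at 68.0, 90.9, 68.3 and 66.8 normalized counts in the CeCo samples (73.5 ± 11.6, mean ± SD, n = 4) and at 123, 84.4, 135 and 78.2 in the CeHi samples (105 ± 28.1, n = 4). In St, it stood at 50.6, 42.5, 38.9 and 39.3 in StCo (42.8 ± 5.44, n = 4) and at 49.3, 104 and 86.7 in StHi (80.0 ± 27.9, n = 3). The Co and Hi ranges overlapped in both regions, in St because replicate 0 of StHi was within the StCo range. The line difference was log2 0.65, SE 0.17, adjusted p = 0.0208 over both regions, but log2 0.48, SE 0.23, adjusted p = 0.252 in Ce and log2 0.82, SE 0.24, adjusted p = 0.0889 in St. The call over both regions was lost without replicate 1 of StHi (log2 0.54, adjusted p = 0.0674) and without replicate 2 of StHi (log2 0.61, adjusted p = 0.0607), and 14.1% of its windows are shared with other genes, among them Hist1h2ag.

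Hist1h2ac lies head to head with Hist1h2bc, an H2B gene that starts at chr13:23684199 on the other strand, so that the RefSeq promoter of the first (GRCm38.p6) holds the start of the second. The 250 bases before the start of Hist1h2ac are shown because these neighbours share it. Capitals mark the TATA box, searched as TATAAA, the box written CCAAT and the octamer, searched as ATTTGCAT, on either strand. The motifs were sought separately, so that matches could overlap.
Hist1h2ac promoter (chr13:23683960-23684209, minus strand): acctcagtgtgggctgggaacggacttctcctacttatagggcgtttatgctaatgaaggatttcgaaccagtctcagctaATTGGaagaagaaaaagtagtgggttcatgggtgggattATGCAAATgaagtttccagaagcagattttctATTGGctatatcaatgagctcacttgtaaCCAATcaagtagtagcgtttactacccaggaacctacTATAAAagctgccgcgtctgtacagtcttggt
Hist1h2bc was the more abundant by far and did not pass in either region. Hist1h2bc stood at 887, 747, 837 and 859 normalized counts in CeCo and at 745, 864, 875 and 937 in CeHi, and at 1138, 728, 816 and 899 in StCo and 1017, 954 and 780.1 in StHi. Its ranges in Co and Hi overlapped in Ce and in St, and the line difference over both regions was log2 0.035, SE 0.089, adjusted p = 0.858. The difference between the neighbours' line effects was not tested, and 30.6% of the Hist1h2bc windows are shared with other genes.

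Hist1h2be, an H2B gene, was higher in Hi over both regions, with log2 0.74, SE 0.18, adjusted p = 0.0178. In Ce, Hist1h2be stood at 94.6, 55.4, 46.1 and 56.4 normalized counts in the CeCo samples (63.1 ± 21.5, mean ± SD, n = 4) and at 79.1, 119.96, 129 and 102 in the CeHi samples (107 ± 21.9, n = 4). In St, it stood at 238, 141, 116 and 114 in StCo (152 ± 58.5, n = 4) and at 281, 233 and 201 in StHi (238 ± 40.5, n = 3). The ranges overlapped through replicate 0 of the Co line, which had the highest value of its group in each region. Within regions the gene did not pass, with log2 0.78, SE 0.25, adjusted p = 0.0777 in Ce and log2 0.69, SE 0.27, adjusted p = 0.223 in St. The first annotated exon of Hist1h2be lies inside the 3′ part of Hist1h1e on the same strand, and fragments from there cannot be assigned to one of these genes. Hist1h1e, a linker histone gene, did not pass the line test (log2 -0.16, SE 0.14, adjusted p = 0.542 over both regions).

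Hist1h4h, one of the genes for the invariant histone H4, passed the filter in 3 samples, which were all CeHi. In Ce, Hist1h4h stood at 36.3, 30.3, 26.5 and 31.2 normalized counts in the CeCo samples (31.1 ± 4.07, mean ± SD, n = 4) and at 37.0, 47.5, 42.6 and 51.8 in the CeHi samples (44.7 ± 6.36, n = 4). In St, it stood at 22.2, 14.8, 25.2 and 16.5 in StCo (19.7 ± 4.86, n = 4) and at 31.1, 35.0 and 35.6 in StHi (33.9 ± 2.42, n = 3). The Hi samples were above the Co samples in both regions, although replicate 0 of each line nearly met in Ce. The difference was log2 0.64, SE 0.15, adjusted p = 0.0119 over both regions, log2 0.50, SE 0.20, adjusted p = 0.171 in Ce and log2 0.78, SE 0.22, adjusted p = 0.0719 in St. Because the gene was admitted through one of the groups compared and 45.8% of its windows are shared with other H4 genes, its call is uncertain. The other tested H4 genes did not pass, with log2 0.59, SE 0.21, adjusted p = 0.0914 for Hist1h4i and log2 -0.20, SE 0.14, adjusted p = 0.431 for Hist4h4.

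Hist1h2al showed the largest difference between lines among the tested members, and a near-identical copy of its GENCODE bases bears on its reading. It is annotated by GENCODE as a processed pseudogene at chr13:51202727-51203065 (minus strand), 27.3 megabases from the other 54 Hist1 genes. RefSeq lists it as a transcribed pseudogene with a span of 2983 bases (chr13:51200084-51203066). Whether its fragments came from outside the 339 bases of the GENCODE model was not tested. Hist1h2al stood at 70.8, 48.1, 71.7 and 68.6 normalized counts in CeCo and at 0, 3.16, 1.85 and 2.11 in CeHi, and at 81.5, 76.2, 62.0 and 81.4 in StCo and 1.30, 2.91 and 2.37 in StHi. The lowest Co sample was at 48.1, and every Hi sample was at or under the floor. It passed the filter only through the Co samples, so that a difference was implied by its being tested. Summed over a group, the recovered fragments were 291 in CeCo and 7 in CeHi, a depth-corrected ratio of 38.7 (exact 95% counting interval 18.5 to 97.0). In St there were 291 and 6 fragments, and a ratio of 32.9 (14.9 to 90.3). The adjusted p was 2.48e-07 in Ce, 1.35e-06 in St and 3.47e-09 over both regions.

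The 339 GENCODE bases of Hist1h2al matched Hist2h2aa1 and Hist2h2aa2, which encode H2A in the Hist2 cluster, at 337 positions (99.4%). A stretch of 120 bases that holds both mismatches is shown with these in capitals, on the strand of each gene.
Hist1h2al (chr13:51202850-51202969, minus strand): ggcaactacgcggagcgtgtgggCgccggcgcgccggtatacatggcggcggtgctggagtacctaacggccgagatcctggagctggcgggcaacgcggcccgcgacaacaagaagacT
Hist2h2aa1 (chr3:96245692-96245811, plus strand): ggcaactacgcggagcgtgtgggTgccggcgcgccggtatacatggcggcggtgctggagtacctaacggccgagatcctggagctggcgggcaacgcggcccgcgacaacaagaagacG
Apart from these positions, fragments from the aligned bases carry the same letters, and Hist2h2aa2 was listed at 0 in every sample. Hist2h2ac matched the 339 bases at 333 positions (98.2%). Of the Hist2h2aa1 windows 100% are shared with other annotated genes, among them Gm20634, which overlaps it on the same strand. Fragments counted for the pair could therefore also come from genes outside it, which was not tested. In Ce, Hist2h2aa1 stood at 127, 106, 172 and 141 normalized counts in the CeCo samples (136 ± 27.8, mean ± SD, n = 4) and at 158, 181, 177 and 236 in the CeHi samples (188 ± 33.3, n = 4). In St, it stood at 186, 127, 187 and 189 in StCo (172 ± 30.5, n = 4) and at 241, 261 and 236 in StHi (246 ± 13.2, n = 3). Here the Hi samples were higher, without overlap in St and with overlap in Ce. Hist2h2aa1 gave log2 0.49, SE 0.12, adjusted p = 0.0172 over both regions, log2 0.46, SE 0.17, adjusted p = 0.118 in Ce and log2 0.53, SE 0.18, adjusted p = 0.151 in St.

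The sum of Hist1h2al and Hist2h2aa1 was 201 ± 37.1 in CeCo and 190 ± 33.9 in CeHi (SD, n = 4 each), and 248 ± 31.4 in StCo (n = 4) and 248 ± 13.7 in StHi (n = 3). The summed ranges of the lines overlapped in both regions. Hist1h2al made up 24.9% to 37.6% of this sum in the Co samples and at most 1.71% in the Hi samples. When the pair was entered into the fit as a single gene, a setting chosen after seeing the data, the line difference was log2 -0.087 (SE 0.15, adjusted p = 0.800) in Ce and log2 0.0075 (SE 0.16, adjusted p = 0.994) in St. Over both regions it was log2 -0.040 (SE 0.11, adjusted p = 0.873), so the higher call of Hist2h2aa1 was lost. How the counting divided fragments between the copies was not tested. Within 1 megabase of Hist1h2al 8 other genes were tested, and 0 passed the limma line test in Ce, St or over both regions, with unadjusted P-values under 0.05 for 0, 1 and 0 of them and 0 calls by edgeR.

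**Figure D3:**
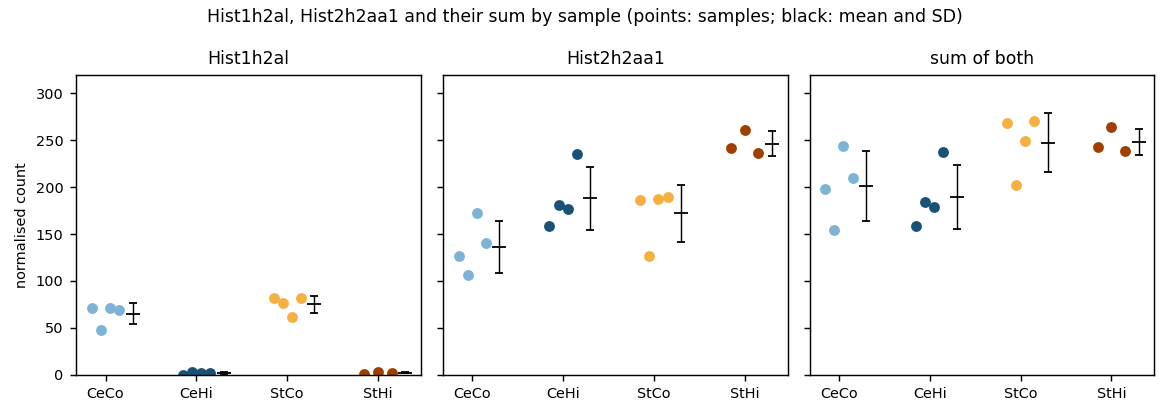
Normalized count (vertical axis, from 0) of Hist1h2al, of Hist2h2aa1 and of their sum in every sample, with the group mean and SD in black. Hist1h2al is near 0 in the Hi samples and Hist2h2aa1 is higher there, whereas the sums of the Co and Hi samples cover overlapping ranges in each region.

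Below the filter, Hist2h2bb and Hist2h4 of the Hist2 cluster had lower values in the Hi samples. These were named because they passed when the filter was lowered to a value of 10 in 3 samples, which admitted 21 members of 17120 genes. Hist2h2bb stood at 19.6, 14.3, 17.1 and 16.03 normalized counts in CeCo and at 10.1, 9.49, 6.48 and 3.17 in CeHi, and at 33.3, 29.7, 29.4 and 31.1 in StCo and 15.6, 7.77 and 5.94 in StHi. Hist2h4 stood at 11.2, 8.02, 6.83 and 12.5 normalized counts in CeCo and at 0, 2.11, 2.78 and 2.11 in CeHi, and at 22.2, 14.8, 23.1 and 33.8 in StCo and 3.89, 9.71 and 10.7 in StHi. For both genes every Hi sample was below every Co sample of its region, and Hist2h4 was at the floor in CeHi. In that fit, Hist2h2bb differed by log2 -1.18, SE 0.32, adjusted p = 0.0387 in Ce and log2 -1.66, SE 0.35, adjusted p = 0.0118 in St. Hist2h4, an H4 gene, differed by log2 -2.08, SE 0.43, adjusted p = 0.00633 in Ce and did not pass in St (log2 -1.47, SE 0.46, adjusted p = 0.111). In that fit 4 of the 21 members passed in Ce (background 5.37%), 3 in St (background 2.59%) and 8 over both regions (background 8.22%). Both genes reached the value of 10 more often in Co than in Hi samples, so that the filter favoured this direction, and Hist2h2bb lies within the longer annotated gene Gm42743 on its own strand. The call of Hist2h2bb in Ce was lost under 9 of 26 alternatives (adjusted p of at most 0.109), namely quantile normalization, Ce fitted alone and the fits without any 1 of the CeCo samples, without replicate 2 or 3 of CeHi or without replicate 1 of StCo. In St it was lost without replicate 1 (adjusted p = 0.0600) or replicate 2 of StHi (adjusted p = 0.0806). Hist2h4 passed in St without replicate 0 of CeHi (adjusted p = 0.0457) and with a pseudocount of 5 (adjusted p = 0.0274).

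The genes of the Hist2 cluster, which spans chr3:96219865-96270132, had line differences on both sides of 0, which is a description, because Hist2h4 and Hist2h2bb were added after their values were seen and through a filter that favoured lower values in Hi. In the order of the chromosome, Hist2h2be was higher in Hi, Hist2h3c2, an H3 gene, did not pass (log2 0.26, SE 0.14, adjusted p = 0.289 over both regions), and Hist2h2aa1 was higher as long as its copy was counted apart. Hist2h3c1, the most abundant H3 gene, did not pass (log2 0.088, SE 0.093, adjusted p = 0.636), and Hist2h4 and Hist2h2bb at the far end had the negative values given above. Within 1 megabase of the cluster 47 genes outside it were tested, of which 7 passed over both regions, next to 8.48% of all genes.

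**Figure D4:**
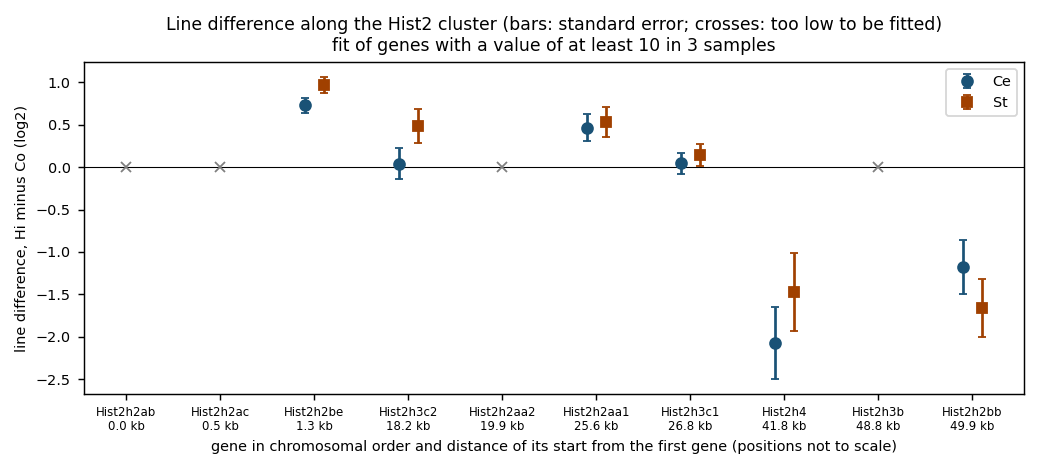
Line difference, Hi minus Co on the log2 scale (vertical axis), of the genes of the Hist2 cluster in chromosomal order, in Ce (circles) and St (squares), with standard errors, from the fit of genes with a value of at least 10 in 3 samples. Hist2h2be and Hist2h2aa1 lie above 0 and Hist2h4 and Hist2h2bb below it in both regions, and crosses mark genes too low to be fitted.

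The remaining highly expressed members did not pass any line test. Hist3h2a stood at 1399.8, 1340.0, 1218 and 1358 normalized counts in CeCo and at 1292, 1519, 1488 and 1683 in CeHi, and at 2187, 1907, 1804 and 2169 in StCo and 2471, 2267 and 2154 in StHi. Hist3h2ba stood at 1034, 859, 886 and 1107 normalized counts in CeCo and at 896, 1186, 1112 and 1199 in CeHi, and at 563, 603, 632 and 607 in StCo and 809, 686 and 608 in StHi. The Co and Hi ranges overlapped for both Hist3 genes in both regions, and over the regions Hist3h2a gave log2 0.17, SE 0.060, adjusted p = 0.0910 and Hist3h2ba log2 0.19, SE 0.079, adjusted p = 0.166. Hist1h1c stood at 712, 540.3, 742 and 637 normalized counts in CeCo and at 524, 522, 698 and 632 in CeHi, and at 848, 485, 602 and 726 in StCo and 733, 873 and 697 in StHi. Hist1h1c overlapped between the lines throughout, with log2 0.036, SE 0.12, adjusted p = 0.893.

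The line-by-region interaction asked whether the line difference was unlike in Ce and St. Of the 15 members 0 passed the limma interaction test (background 0.532%), 0 had an unadjusted P-value under 0.05, and edgeR on the recovered fragments also called 0 (background 0.657%). For Hist2h2be the interaction, Ce minus St, was log2 -0.24, SE 0.13, adjusted p = 0.624. For Hist1h1c it was log2 -0.38, SE 0.23, adjusted p = 0.680, and for the other members it was between log2 -0.44 (Hist2h3c2) and log2 0.087 (Hist1h2be). These values do not show that the line differences were equal, since their standard errors were between 0.12 and 0.54.

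**Figure D5:**
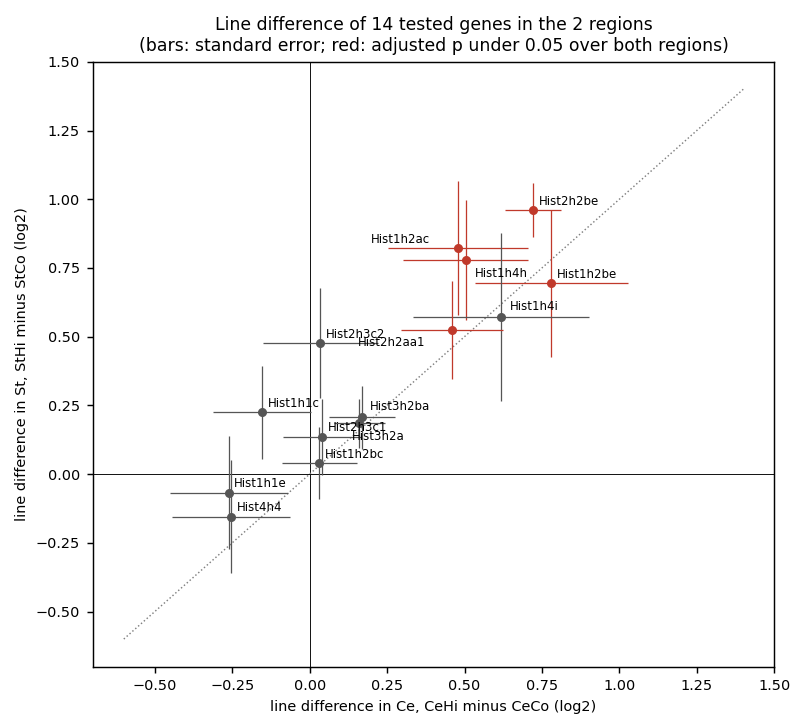
Line difference in St (vertical axis) against that in Ce (horizontal axis), Hi minus Co on the log2 scale, for 14 tested clustered histone genes with standard errors and a dotted line of equality. The 5 genes higher in Hi over both regions (red) lie in the upper right, and Hist1h2al, at -4.72 in Ce and -4.61 in St, is left out for scale.

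The region contrast compared Ce with St, averaged over the lines. Of the 15 tested members 10 passed, compared with 80.2% of all genes tested, 5 higher in Ce (background 40.6%) and 5 lower (background 39.6%). Higher in Ce were Hist2h2be, Hist1h1e (log2 0.95, SE 0.14, adjusted p = 7.73e-06), Hist3h2ba (log2 0.66, SE 0.079, adjusted p = 6.08e-07), Hist1h2ac (log2 0.59, adjusted p = 0.00385) and Hist1h4h (log2 0.51, adjusted p = 0.00456). Hist1h4h reached the filter only through Ce samples, which favoured this direction. Lower in Ce were Hist1h2be (log2 -1.20, SE 0.18, adjusted p = 1.21e-05), Hist3h2a (log2 -0.62, SE 0.060, adjusted p = 4.77e-08), Hist2h3c2 (log2 -0.54, adjusted p = 0.00159), Hist2h3c1 (log2 -0.48, adjusted p = 0.000158) and Hist2h2aa1 (log2 -0.37, adjusted p = 0.00951). Hist1h1e stood at 164, 119, 143 and 151 normalized counts in CeCo and at 108, 108, 159 and 112 in CeHi, and at 81.7, 58.2, 61.5 and 76.2 in StCo and 53.2, 92.5 and 57.8 in StHi. The Ce samples of Hist1h1e were above the St samples within each line. Hist2h3c1 stood at 265, 227, 234 and 286 normalized counts in CeCo and at 249, 275, 320.5 and 208 in CeHi, and at 393, 299, 309 and 364 in StCo and 362, 386 and 374 in StHi. For Hist2h3c1, whose exons lie within the longer gene Gm20634, the Ce samples were below the St samples within each line. Hist1h2be had the lowest value of the contrast and Hist2h2be, another H2B gene, the highest.

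Hist3h2a and Hist3h2ba, neighbours on the same strand, moved in opposite directions between the regions in both lines. All St samples were above all Ce samples for Hist3h2a and below them for Hist3h2ba, whether Co or Hi. Their RefSeq promoters are shown with the same motifs in capitals.
Hist3h2a promoter (chr11:58954435-58954684, plus strand): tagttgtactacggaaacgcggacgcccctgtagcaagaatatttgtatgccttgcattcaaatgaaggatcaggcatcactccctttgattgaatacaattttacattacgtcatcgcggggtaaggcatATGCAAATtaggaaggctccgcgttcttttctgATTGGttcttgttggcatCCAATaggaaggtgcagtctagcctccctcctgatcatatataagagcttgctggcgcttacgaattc
Hist3h2ba promoter (chr11:58948661-58948910, plus strand): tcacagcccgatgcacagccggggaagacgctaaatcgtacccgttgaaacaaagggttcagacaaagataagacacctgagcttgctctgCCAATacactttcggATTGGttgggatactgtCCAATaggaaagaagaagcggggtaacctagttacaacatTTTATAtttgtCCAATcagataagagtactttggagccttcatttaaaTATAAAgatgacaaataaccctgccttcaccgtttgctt
The Hist3h2a window held the octamer and no TATAAA, and the Hist3h2ba window TATAAA and no octamer. Over the 62 members with a RefSeq promoter, the 250 bases before the start held TATAAA in 46.8%, CCAAT in 82.3% and the octamer in 22.6%, compared with 12.4%, 33.8% and 1.60% of 32851 promoters cut to the same 250 bases. The octamer was found in 7 of 18 H2A and 7 of 16 H2B promoters and in 0 of the H1, H3 and H4 promoters. Part of the Hist3h2a exonic sequence is shared with Trim17, which overlaps it on the same strand.

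Genes that encode other histones or handle histone mRNA and protein were compared as lists, next to 2.94% of all tested genes higher and 2.99% lower in Hi in Ce, and 1.49% higher and 1.17% lower in St. Of 9 tested core histone variants, which replace clustered histones outside S phase, 1 was lower in Hi in Ce, and this was H3f3b (log2 -0.27, SE 0.056, adjusted p = 0.00676). In St 0 of these passed with limma and with edgeR, and 2 had an unadjusted P-value under 0.05. Over both regions H2afj, which encodes an H2A variant, was higher in Hi (log2 0.17, SE 0.037, adjusted p = 0.00738; background 4.34%), and H3f3b was lower (log2 -0.16, SE 0.041, adjusted p = 0.0201; background 4.14%). The latter call was lost without replicate 0 or 3 of CeCo or replicate 2 of StHi (adjusted p of at most 0.0634). Of the 2 tested linker histones outside the clusters, H1f0, which encodes the linker histone of non-dividing cells, was lower in Hi in Ce (log2 -0.39, SE 0.068, adjusted p = 0.00153). It did not pass in St (log2 -0.21, SE 0.074, adjusted p = 0.164) but was also lower over both regions (log2 -0.30, SE 0.050, adjusted p = 0.000860; background 4.14%). Alternatives were run only for the Ce difference of H1f0. Among 16 tested genes of histone mRNA 3′ end processing and transcription, 3 were lower in Hi in Ce, and 1 was higher and 2 were lower in Hi in St. Cpsf3, the endonuclease that cleaves histone pre-mRNA, was lower in both, with log2 -0.34 (SE 0.061, adjusted p = 0.00209) in Ce and log2 -0.39 (SE 0.066, adjusted p = 0.00238) in St. Of 14 tested histone chaperones 0 passed the line test in either region with limma or edgeR, and 1 had an unadjusted P-value under 0.05 in Ce and 0 in St. Of 19 tested S phase and mitosis genes, 2 were lower in Hi in Ce and 1 was lower in Hi in St. Ccna2, the S phase cyclin A2, was among them in both (log2 -0.62, SE 0.11, adjusted p = 0.00267 in Ce and log2 -0.57, SE 0.12, adjusted p = 0.0149 in St). The St call was lost when St was fitted alone (adjusted p = 0.0620) and without replicate 0 (adjusted p = 0.0701) or replicate 2 of StHi (adjusted p = 0.0684).

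Markers of the tissues followed the labels, since all 6 granule cell and 5 Purkinje cell markers were higher in Ce and all 8 medium spiny neuron markers were higher in St. Over both regions 1 of 8 medium spiny neuron markers and 1 of 4 oligodendrocyte precursor markers were higher in Hi (background 4.34%), and 1 of 5 microglia markers was lower (background 4.14%). Mbp, which encodes myelin basic protein of oligodendrocytes, was higher in Hi over both regions (log2 0.35, SE 0.089, adjusted p = 0.0208). This call was lost without replicate 2 of StHi (log2 0.33, adjusted p = 0.0606). The sum of the choroid plexus markers varied widely in Ce, from 1351 to 115889 in CeCo and 1017 to 112187 in CeHi. In St the sum ranged from 1252 to 1774 in StCo and from 1772 to 17946 in StHi. The part of these markers in the histone line differences was not tested.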

How the data were processed

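RNA from cerebellum and striatum was sequenced as 100-base paired-end reads. According to the paper's methods and the submitters' processing notes, the authors aligned reads with Tophat2 to GRCm38 and scaled gene counts for library size with Cuffnorm 2.2.1. The deposited values are a signal, fragment counts scaled by 1 factor for each library and uncorrected for gene length, because 99.6% to 99.8% of low values were whole multiples of a step, within 0.1 of a step. A StHi sample that the authors removed was not analysed here.

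Genes reaching a CPM of 1 (normalized counts per 1000000 of the sample) in at least 3 samples were kept (15213 of 26628). Values were scaled with TMM factors (0.933 to 1.05) and transformed as log2(value + 1), which understates changes of low genes. Limma 3.58.1 in R 4.3.3 fitted the 4 group means with trended, robust moderation, and P-values were adjusted by the Benjamini-Hochberg method over all genes tested. Line differences are Hi minus Co. Alternatives comprised edgeR 4.0.16 quasi-likelihood and DESeq2 1.42.0 tests on the recovered fragments, other scalings, pseudocounts of 0.1 and 5, other filters, a replicate block and leaving out each sample. On simulated data for the Ce line contrast over 15213 genes, 96% of genes changed by a log2 of 1 and 100% of those changed by 2 were recovered. These shares are not specific to the members and do not show that a member without a call was unchanged. For example, Hist1h2be at log2 0.78 (SE 0.25) in Ce was not called.

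Members with an adjusted P-value under 0.05 in a line contrast or the interaction, the 10 most abundant members and the extremes of the region contrast were named, with at most 3 genes per pathway list, and Hist2h2bb and Hist2h4 were added after their values were seen. Members and lists were chosen with earlier results of these data known. Positions, transcripts and overlaps came from GENCODE M21, and promoters from RefSeq (62 of 69 members matched). Samples were not pooled, and the locomotor measurements were not used here. The counts and the sum of the oligodendrocyte marker list are not reported here.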

Additional observations from a re-analysis of the deposited data

Results flagged for a closer look

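Single samples that stood far from the rest of their group were sought with Dixon's test at the 95% level in the groups of 4 samples, over 21 members and 63 combinations of gene and group. In 5 of these 1 sample stood apart, and chance alone gives about 1 in 20. Hist1h1e was at 159 normalized counts in replicate 2 of CeHi and at 108 to 112 in the other CeHi samples. Hist1h2ac was at 90.9 in replicate 1 of CeCo and at 66.8 to 68.3 in the others. In the same sample Hist1h2al was low, at 48.1 against 68.6 to 71.7. Hist2h2aa1 was at 127 in replicate 1 of StCo and at 186 to 189 in the others. Hist1h4m, an H4 gene below the filter, was at 11.1 in replicate 0 of StCo and at 4.57 to 5.25 in the others.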

How the results depend on the processing

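The directions and calls of the line differences of the 6 called members held under the alternatives planned, apart from Hist1h2ac over both regions, which was not called without replicate 1 of StHi (log2 0.54, adjusted p = 0.0674) or without replicate 2 of StHi (log2 0.61, adjusted p = 0.0607), and apart from Hist1h4h, which was too low to be tested in 3 of the 15 fits that left out a sample. The fits that left out 1 sample each called 2 to 3 members in Ce, 2 to 3 in St, 5 to 7 over both regions, 0 to 0 for the interaction and 9 to 11 between regions, by limma. Without a filter beyond a value above 0, 62 members were tested, of which 4 were called in Ce and 16 between regions, and with a filter of 10 in 3 samples 4 of 21 were called in Ce. Between regions, the 10 calls held, except that quantile normalization lost Hist2h2aa1 (adjusted p = 0.133) and Hist2h3c2 (adjusted p = 0.164). Alternatives for Hist2h2bb, Hist2h4 and the 6 genes outside the clusters were added after seeing the data, and the calls lost are given beside their results. Hist2h2aa1 reversed to log2 -0.040 (adjusted p = 0.873) when summed with Hist1h2al. Replicate numbers were not taken to pair the samples, since deviations of same-numbered samples correlated at 0.171 to 0.278 between CeCo and StCo but at -0.0751 to 0.0514 between CeHi and StHi. With the replicate number as a block, 2 members were called in Ce, 2 in St, 7 over both regions and 10 between regions, and the block changed no call of a line difference given with alternatives, which are those of the called members, of Hist2h2bb and Hist2h4 and of H3f3b, H2afj, H1f0, Cpsf3, Ccna2 and Mbp. That block joined same-numbered samples of both lines, which are different mice. It therefore cannot test whether Ce and St samples from the same mouse would change the line calls. A block within line was fitted only for the interaction and the region contrast. For the 54 members that were not tested, low depth and the assignment of shared fragments cannot be told apart, and the lines are represented by 1 line each.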
